A study of Mus musculus with 8 samples.

Results

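The genes described here build the carriers that take procollagen out of the endoplasmic reticulum (ER), together with a pair of transcription factors of the same pathway. They were chosen by symbol as Sar1a, Sar1b, Sec23a, Sec24a, Sec24d, Sec31a, Mia3, Creb3l1 and Creb3l2, and all 9 were found among the 14457 genes of the deposited table. Bulk RNA sequencing covered the femoral bone shaft from mice of postnatal day 7, as 4 libraries of CKO animals (Col2.3kb-Cre; Slc26a2 fl/fl) and 4 control libraries (Col2.3kb-Cre; Slc26a2 fl/+). Both groups therefore carry the Cre driver, and the controls carry 1 floxed Slc26a2 allele. The driver uses part of a type I collagen gene promoter and acts in osteoblasts, so it is not expected to delete the gene in other cells of the shaft. SLC26A2 is a sulfate transporter, and the groups were compared to learn what lies behind disturbed maturation of osteoblasts without it. The labels number the libraries without saying whether 1 mouse gave each, so the p-values reflect library-to-library spread, which may be technical.

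Proteins for secretion leave the ER in vesicles coated by the COPII complex. The GTPase SAR1 starts the coat, SEC23 and SEC24 form its inner layer, with SEC24 binding the cargo, and SEC13 and SEC31 form its outer cage. Procollagen is too long for an ordinary vesicle, and the receptor TANGO1, encoded by Mia3, links it to the coat. CREB3L1 (OASIS) and CREB3L2 are transcription factors held in the ER membrane and released by proteolysis, and both are known from mouse studies to act in cells that secrete much collagen. In humans, loss of SEC24D or CREB3L1 causes forms of osteogenesis imperfecta, and loss of SEC23A causes a disorder of skull ossification.

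The libraries differed in more than genotype. Slc26a2 itself was at 2.93, 2.08, 0.706 and 0.8289 FPKM in CKO replicates 1 to 4, against 4.37, 7.49, 4.85 and 4.85 FPKM in control replicates 1 to 4. Every CKO library lay below every control, and the gene fell by 1.34 on the log2 scale (SE 0.30, limma adjusted p = 0.0412). FPKM is the number of fragments per kilobase of transcript, scaled to the mapped fragments of the library. The FPKM of all genes summed to 431612 to 598419 in CKO and 352283 to 379669 in control. Among marker lists, the summed FPKM of 8 neutrophil genes was 6108 to 27469 in CKO and 788 to 3913 in control, and 3 of the 8 rose. For 7 erythroid genes the sum was 17963 to 70779 in CKO and 3834 to 13022 in control, and 3 of the 7 rose. The 9 osteoblast genes include Col1a1 and Col1a2, so their sum is not independent of the procollagen cargo described below. The sum was 31824 FPKM in CKO replicate 4 and 5894 to 15484 FPKM in the other CKO libraries, against 29057 to 36725 FPKM in control. Each of the 9 was above 0 in every library and none passed the threshold. None of 7 B lineage, 7 skeletal muscle, 3 chondrocyte (4 are in the table), 5 endothelial and 5 osteoclast genes tested passed either, with sums of 190 to 495, 108 to 7220, 13.7 to 69.9, 70.9 to 129 and 4382 to 5000 FPKM in CKO against 62.1 to 400, 40.7 to 2374, 39.7 to 63.4, 150 to 188 and 4031 to 6540 FPKM in control, and no listed gene of these types at 0. CKO replicate 4 stood apart, as 155 of its genes were listed at 0, compared with 9 to 31 for CKO replicates 1 to 3 and 5 to 26 for control, and 2.92% of its FPKM came from genes encoded in mitochondria, compared with 9.91% to 14.8% for CKO replicates 1 to 3 and 9.13% to 14.7% for control. Y-linked genes were above 0 in CKO replicate 4 and control replicates 2 to 4 and at 0 in CKO replicates 1 to 3 and control replicate 1. The part of these differences in the results that follow was not tested beyond the values given beside them.

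Of the 9 secretion genes, 1 fell in CKO and 8 did not pass the threshold. It was Creb3l2, 54.6% lower in CKO (limma adjusted p = 0.0422, Benjamini-Hochberg over 12748 genes, threshold 0.05). Over all genes tested, 4.53% passed by the same rule, with 0.651% lower and 3.88% higher. The log2 fold change was below 0 for 7 of the 9 and above 0 for Sar1a and Sar1b, and it was below 0 for 48.9% of all genes tested. The median over the 9 was -0.62, against 0.01 over all genes tested. Fold changes are differences of mean log2(FPKM + 1), CKO minus control, which understates the change of low genes.

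**Figure D1:**
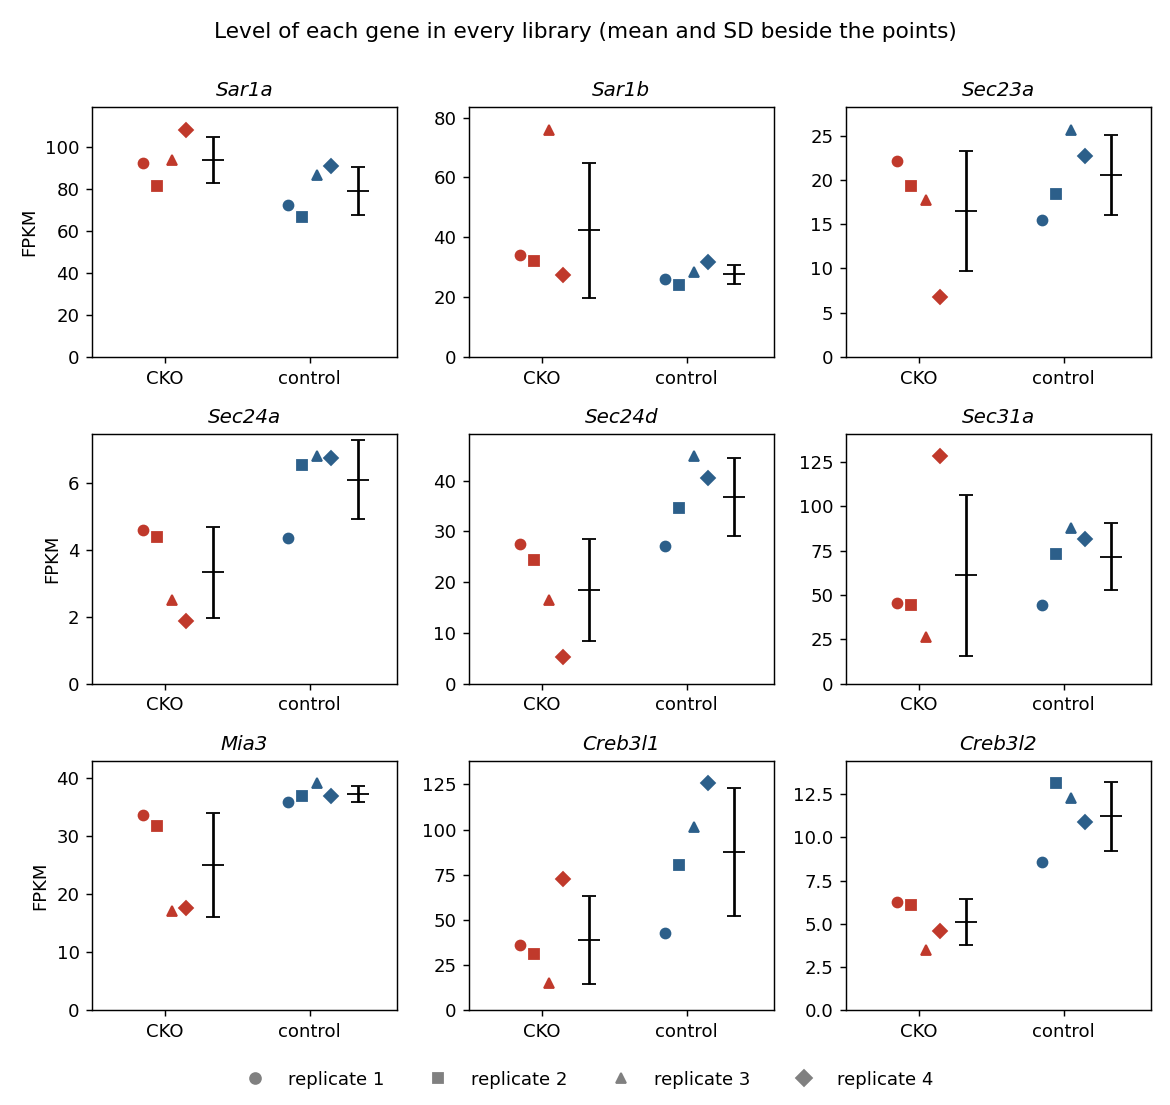
Level of each of the 9 genes in every library (vertical axes: FPKM, each with its own scale from 0), CKO in red at the left and control in blue at the right, with a marker shape per replicate number and the mean and SD (n = 4) beside the points. The groups do not overlap for Mia3 and Creb3l2, whereas CKO replicate 4 is the highest of the 8 libraries for Sec31a and the lowest for Sec24d.

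Both CREB3L factors had lower means in CKO. Creb3l2 (ENSMUSG00000038648, GRCm38 chromosome 6, 37327255 to 37442146, minus strand) was at 6.27, 6.08, 3.48 and 4.58 FPKM in CKO replicates 1 to 4 and at 8.59, 13.1, 12.3 and 10.9 FPKM in control replicates 1 to 4. Every CKO library lay below every control library, as in 6.00% of all genes tested. The means were 5.10 ± 1.32 FPKM in CKO and 11.2 ± 1.99 FPKM in control (SD, n = 4 each), with a log2 fold change of -1.01 (SE 0.23). The call was near the threshold. Leaving out 1 library at a time kept the fold change between -1.13 and -0.87, but the limma adjusted p stayed under 0.05 only without CKO replicate 4 (0.0299) or control replicate 1 (0.0336), and reached 0.177 without control replicate 3. With all 8 libraries the fold change was -1.02 under median-of-ratios scaling (limma adjusted p = 0.0637). It was -0.84 with Y-linked expression as a covariate (SE 0.30, adjusted p = 0.237). With the level of marrow-lineage markers as one it was -0.93 (SE 0.41, adjusted p = 0.853). No gene of the whole table passed in these settings. The 0.0637 and 0.853 equal the lowest adjusted p of any gene in theirs, but Benjamini-Hochberg adjustment can give many genes the same value. They do not rank Creb3l2 first. With the marrow-lineage covariate 702 genes had an unadjusted limma p under 0.05, and that of Creb3l2 was 0.0486.

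Creb3l1 (ENSMUSG00000027230, chromosome 2, 91982328 to 92024502, minus strand), the member of the family best known from osteoblasts, was the more abundant of the pair on the FPKM scale in every library. It was at 36.3, 31.2, 15.3 and 72.8 FPKM in CKO replicates 1 to 4 and at 42.6, 80.7, 101 and 126 FPKM in control replicates 1 to 4. CKO replicate 4 lay above control replicate 1, and the other 3 CKO libraries lay below all controls. The means were 38.9 ± 24.3 FPKM in CKO and 87.6 ± 35.2 FPKM in control (SD, n = 4 each), with a log2 fold change of -1.25 (SE 0.45, limma adjusted p = 0.122). Without CKO replicate 4 the fold change was -1.61 and the limma adjusted p 0.0336, so that library decided whether Creb3l1 passed. It also moved the whole table. Without it 1885 of 12748 genes passed, 350 of them lower, against 578 and 83 with all libraries. With the Y-linked covariate the fold change was -0.33 (SE 0.41, limma adjusted p = 0.662). With the marrow-lineage one it was -0.37 (SE 0.71, adjusted p = 0.934), so both were loosely estimated. The log2 ratio of Creb3l1 to Creb3l2 averaged 2.76 ± 0.84 in CKO and 2.88 ± 0.53 in control (SD, n = 4 each), a difference of -0.12 that did not pass (exact two-sided permutation p = 0.800). The difference was -0.53 without CKO replicate 4, 0.09 without CKO replicate 3 and 0.10 without control replicate 4, so single libraries set its sign.

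Mia3 (ENSMUSG00000056050, chromosome 1, 183326725 to 183369553, minus strand), the procollagen receptor, had the smallest control SD of the 9 relative to its mean. It was at 33.7, 31.8, 17.2 and 17.6 FPKM in CKO replicates 1 to 4 and at 36.0, 36.9, 39.2 and 37.0 FPKM in control replicates 1 to 4. The groups did not overlap, yet CKO replicates 1 and 2 lay just under the controls and replicates 3 and 4 far under them. Of all genes tested, 6.00% lay wholly lower in CKO in this way and 12.7% wholly higher. The means were 25.1 ± 8.91 FPKM in CKO and 37.3 ± 1.35 FPKM in control (SD, n = 4 each), with a log2 fold change of -0.62 (SE 0.25, limma adjusted p = 0.157). Mia2, whose product is the partner of TANGO1 at ER exit sites, was at 3.16 FPKM in the lowest CKO library, replicate 4, and averaged 17.1 ± 9.45 FPKM in CKO and 19.3 ± 2.34 FPKM in control. The log2 ratio of Mia3 to Mia2 was 2.48 in CKO replicate 4 and -0.33 to 0.76 in the other CKO libraries, against 0.78 to 1.19 in control, and its difference was -0.13 (exact two-sided permutation p = 0.8286). That difference was -0.68 without CKO replicate 4 (exact permutation, adjusted p = 0.0643) and 0.26 without CKO replicate 3.

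The cargo-binding subunits Sec24a and Sec24d had lower means in CKO but did not pass. Sec24d (ENSMUSG00000039234, chromosome 3, 123267455 to 123365641, plus strand) was at 27.6, 24.4, 16.5 and 5.17 FPKM in CKO replicates 1 to 4 and at 27.1, 34.6, 44.7 and 40.5 FPKM in control replicates 1 to 4. The groups overlapped through CKO replicate 1 and control replicate 1, and CKO replicate 4 was far below all others. Its means were 18.4 ± 9.97 FPKM in CKO and 36.7 ± 7.62 FPKM in control (SD, n = 4 each), with a log2 fold change of -1.15 (SE 0.43, limma adjusted p = 0.130). Without CKO replicate 4 that was -0.67, the value nearest to 0 among the 18 refits.

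Sec24a (ENSMUSG00000036391, chromosome 11, 51692264 to 51763634, minus strand) is the least abundant of the 4 Sec24 genes on the FPKM scale in both groups. It was at 4.58, 4.37, 2.49 and 1.86 FPKM in CKO replicates 1 to 4 and at 4.34, 6.53, 6.78 and 6.72 FPKM in control replicates 1 to 4. Control replicate 1 lay within the CKO range, and the other 3 controls lay above it. The log2 fold change was -0.75 (SE 0.26, limma adjusted p = 0.113). Sec24b, which shares much of its sequence with Sec24a, averaged 6.45 ± 1.79 FPKM in CKO and 10.8 ± 1.76 FPKM in control (log2 fold change -0.69, limma adjusted p = 0.0998), and Sec24c, the closer relative of Sec24d, 16.0 ± 4.96 and 20.6 ± 3.54 FPKM in the same order (SD, n = 4 each).

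CKO replicate 4 stood apart in how FPKM was shared among the 4 Sec24 genes. Sec24d held 47.2%, 42.0%, 49.2% and 19.4% of the summed FPKM of the 4 Sec24 genes in CKO replicates 1 to 4, and 46.7%, 43.4%, 53.6% and 53.4% in control replicates 1 to 4. Sec24c held 55.3% in CKO replicate 4 and 28.7% to 36.3% in the other CKO libraries, against 24.5% to 32.2% in control. A ratio of 2 genes within a library does not depend on how the library was scaled, though a difference in their transcript lengths can still enter it. The log2 ratio of Sec24d to Sec24c differed by -0.81 between CKO and control (exact two-sided permutation p = 0.143), and that of Sec24a to Sec24b by -0.18 (p = 0.429 by the same test). Leaving out 1 library at a time put the Sec24d to Sec24c difference between -1.07 and -0.30, the value nearest to 0 being that without CKO replicate 4, and the Sec24a to Sec24b difference between -0.26 and -0.05. The smallest p that 70 assignments of 4 against 4 libraries can give is 0.0286, and none of 9 ratios computed reached it. The lowest Benjamini-Hochberg adjusted value over the 9 was 0.514. A lone ratio at 0.0286 could not have passed this adjustment, so the absence of calls says little.

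Sec23a (ENSMUSG00000020986, chromosome 12, 58958383 to 59012017, minus strand), the GTPase-activating partner of SAR1 in the inner coat, did not pass. It was at 22.1, 19.4, 17.7 and 6.74 FPKM in CKO replicates 1 to 4 and at 15.4, 18.4, 25.7 and 22.8 FPKM in control replicates 1 to 4. Apart from CKO replicate 4 the CKO values lay inside the control range. The log2 fold change was -0.39 (SE 0.34, limma adjusted p = 0.498), and -0.04 without CKO replicate 4. Its relative Sec23b averaged 12.6 ± 4.33 FPKM in CKO and 12.4 ± 1.15 FPKM in control. Sec23a held 55.9% ± 3.07 of the summed FPKM of both in CKO and 61.8% ± 6.85 in control (SD, n = 4 each), and the log2 ratio differed by -0.36 (exact two-sided permutation p = 0.171), or by -0.54 to -0.25 when 1 library was left out.

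Sec31a (ENSMUSG00000035325, chromosome 5, 100361649 to 100416234, minus strand), the rod of the outer cage, had the widest CKO spread. It was at 45.6, 44.4, 26.2 and 128 FPKM in CKO replicates 1 to 4 and at 44.5, 73.0, 87.6 and 81.8 FPKM in control replicates 1 to 4. CKO replicate 4 was the highest of the 8 libraries and CKO replicate 3 the lowest. The log2 fold change was -0.43 (SE 0.43, limma adjusted p = 0.558), and -0.87 without CKO replicate 4 (adjusted p = 0.0646). Its cage partner Sec13 averaged 72.6 ± 12.6 FPKM in CKO and 57.1 ± 3.09 FPKM in control (log2 fold change 0.32, adjusted p = 0.330). The log2 ratio of Sec31a to Sec13 was 1.24 in CKO replicate 4 and -1.65 to -0.76 in the other CKO libraries, against -0.36 to 0.60 in control (exact two-sided permutation p = 0.314). Its difference, -0.77, was -1.35 without CKO replicate 4 and -0.38 without CKO replicate 3. Sec31b held 0.818% ± 0.415 of the summed FPKM of both Sec31 genes in CKO and 0.960% ± 0.214 in control (SD, n = 4 each).

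Of the 9, the SAR1 GTPases had the higher means in CKO on the deposited scale, and neither passed. Sar1a (ENSMUSG00000020088, chromosome 10, 61680299 to 61693297, plus strand) was at 92.3, 81.3, 93.6 and 108 FPKM in CKO replicates 1 to 4 and at 72.4, 66.5, 86.8 and 90.8 FPKM in control replicates 1 to 4. Of the CKO libraries, 3 lay above all controls and replicate 2 within their range (log2 fold change 0.25, SE 0.20, limma adjusted p = 0.458). Sar1b (ENSMUSG00000020386, chromosome 11, 51763687 to 51791925, plus strand), whose loss in humans impairs fat absorption, was at 33.97, 32.2, 75.9 and 27.5 FPKM in CKO replicates 1 to 4 and at 26.0, 24.2, 28.4 and 31.7 FPKM in control replicates 1 to 4. CKO replicate 3 lay far above all other libraries. The log2 fold change of Sar1b was 0.49 (SE 0.30, adjusted p = 0.334), and 0.17 without CKO replicate 3. The sign of both depended on the setting. With equal FPKM totals, where the median of all genes moved to -0.37, Sar1a was at -0.22 and Sar1b at 0.03, with quantile normalization Sar1a was at -0.25, and with the trend against transcript length removed Sar1b was at -0.15. Sar1a held 55.2% to 79.7% of the summed FPKM of both genes in CKO and 73.3% to 75.4% in control, and their log2 ratio differed by -0.25 (exact two-sided permutation p = 0.600). The difference was 0.07 without CKO replicate 3 and -0.49 without CKO replicate 4.

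**Figure D2:**
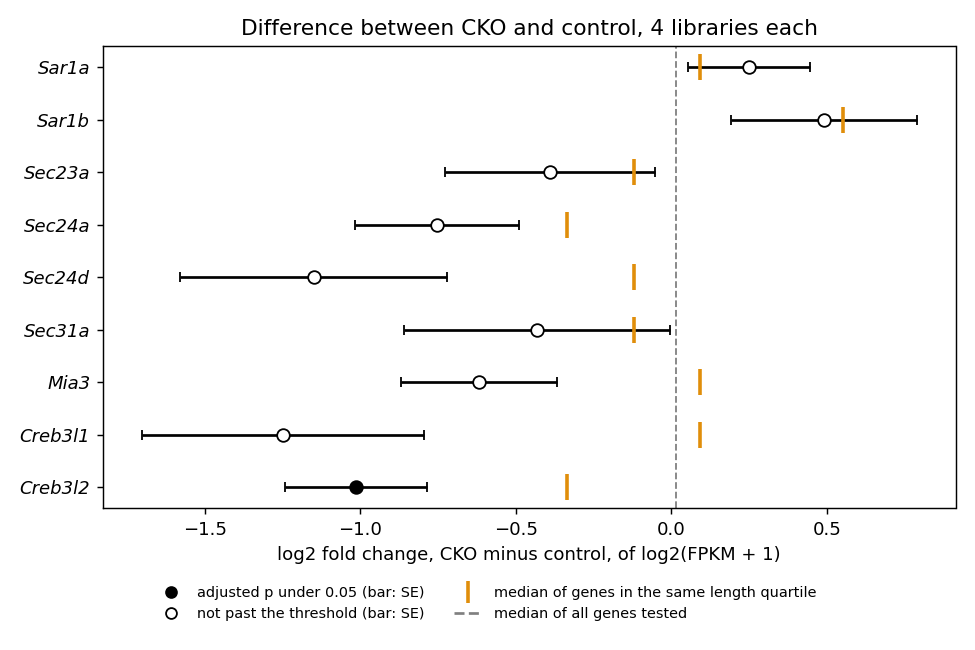
Log2 fold change of each gene (horizontal axis: CKO minus control, of log2(FPKM + 1); bars: SE; 4 libraries each), filled where the limma adjusted p is under 0.05. Orange ticks give the median of all genes in the same quartile of transcript length and the dashed line the median of all genes tested. Creb3l2, at -1.01, is the 1 filled point, and Sar1a and Sar1b are the 2 points right of 0.

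The length of a transcript moved with the fold change across all genes, and the 9 genes differ in length. Taking the longest protein-coding transcript of each gene in GENCODE M21, the median log2 fold change of all genes tested was 0.55 in the shortest quartile, which holds Sar1b at 1201 bases. It was 0.09 in the next, with Creb3l1 (2603 bases), Sar1a (2613) and Mia3 (2961), and -0.12 in the third, with Sec24d (3903), Sec23a (4109) and Sec31a (4228). In the longest quartile, at -0.33, were Sec24a (6581) and Creb3l2 (7082). The ratios of Sec24a to Sec24b and of Sec24d to Sec24c pair genes of the same quartile. The other ratios do not, such as that of Sec31a to Sec13, which at 1353 bases is in the shortest quartile. The part of length in the ratios was not tested. Which transcripts the libraries held was not determined. The quartile of a gene such as Mia3, and its value with the length trend removed, rest on the annotated length alone. With the length trend removed from each library, Creb3l2 was at -0.66 (limma adjusted p = 0.127), Creb3l1 at -1.34, Sec24d at -1.03, Mia3 at -0.64 and Sec24a at -0.42, and no gene of the whole table passed.

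The fold changes were also taken apart by Y-linked expression, without a test since each subset has a lone library in 1 group. Among libraries lacking it, CKO replicates 1 to 3 against control replicate 1, the differences were -0.69 for Creb3l1, -0.65 for Creb3l2, -0.43 for Mia3, -0.27 for Sec24d and -0.18 for Sec24a, with a median of 0.14 over all genes. Among libraries with it, CKO replicate 4 against control replicates 2 to 4, they were -0.47, -1.23, -1.06, -2.72 and -1.43 in the same order, with a median of -0.24 over all genes. These 5 kept their sign in both subsets. Sec23a was at 0.33 and -1.58, and Sec31a at -0.24 and 0.66, in the order lacking and with, and so changed sign between them. Sar1a was at 0.29 and 0.42, and Sar1b at 0.72 and -0.02.

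The 9 genes did not vary as 1 block. By the root mean square difference of their log2(FPKM + 1) values over the 8 libraries, each centred on its own mean, the nearest pair was Sec24a and Mia3, at 0.18, and Creb3l2 was nearest to Sec24a, at 0.23. Sec31a and Creb3l1 were nearest to each other, at 0.46, and Sar1a and Sar1b likewise, at 0.44. The farthest pair was Sar1b and Creb3l1, at 1.31. Of all other annotated genes tested, Efr3b (0.06), Prkd1 (0.08) and Snx24 (0.08) lay nearest to the mean profile of the 9, with log2 fold changes of -0.52, -0.61 and -0.46, none past the threshold. Efr3b was low, averaging 0.840 FPKM in CKO and 1.64 FPKM in control.

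The order of the libraries was compared with that of the main cargo, Col1a1, a comparison chosen after the values were seen. Col1a1 was at 5117, 4902, 1895 and 11607 FPKM in CKO replicates 1 to 4 and at 10864, 14805, 17339 and 18919 FPKM in control replicates 1 to 4 (log2 fold change -1.64, SE 0.55, limma adjusted p = 0.102). Creb3l1 followed exactly this order within both groups, and Sec31a within CKO. None of the other 7 genes had the Col1a1 order in either group. The CKO order was not particular to these genes, as Creb3, Copz2 and Col1a2 also had it, though not the control order. The share of all genes with either order was not computed. Sec23a, Sec24a and Sec24d shared an order in CKO of their own, with replicate 4 lowest and replicate 1 highest. The log2 ratio of Col1a1 to Sec24d was 11.1 in CKO replicate 4 and 6.84 to 7.65 in CKO replicates 1 to 3, against 8.71 ± 0.12 in control (SD, n = 4), with a difference of -0.42 (exact two-sided permutation p = 0.771). It was -1.37 without CKO replicate 4 (exact permutation, adjusted p = 0.0643) and 0.06 without CKO replicate 3. That of Col1a1 to Mia3 was 9.36 in CKO replicate 4 and 6.79 to 7.27 in the others, against 8.67 ± 0.32 in control (SD, n = 4), with a difference of -1.002 (exact two-sided permutation p = 0.143), and of -1.57 without CKO replicate 4 (adjusted p = 0.0643). In a bulk sample, fewer osteoblasts and less of these RNAs per osteoblast cannot be told apart.

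**Figure D3:**
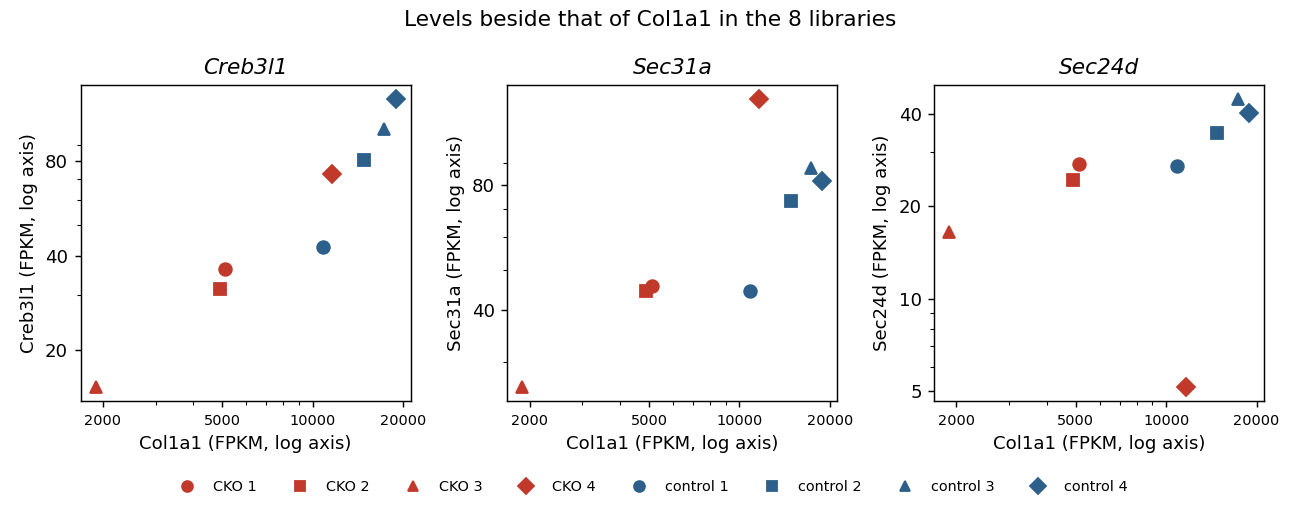
Level of Creb3l1, Sec31a and Sec24d (vertical, FPKM, log axes) against that of Col1a1 (horizontal, FPKM, log axis) in the 4 CKO libraries (red) and 4 control libraries (blue), with a marker shape per replicate number. Creb3l1 and Sec31a are lowest where Col1a1 is lowest, in CKO replicate 3, whereas Sec24d is lowest in CKO replicate 4, at 5.17 FPKM.

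A promoter sequence from RefSeq (GRCm38.p6, 250 bases before to 50 after a start) was found for 8 of the 9 genes, all but Creb3l1. The letters TGACGTG, of the kind bound by CREB-family factors, are shown because the 3 genes that hold them, Mia3, Sec24d and Sec23a, are the receptor and parts of the inner coat, and the CREB3L factors described above belong to that wider family. They lie on the gene's strand 86 and 26 bases before the RefSeq start in Mia3 and Sec24d, and begin at base 7 after it in Sec23a. Set against the GENCODE gene coordinates given above, they begin 98 bases upstream of Mia3, 15 bases inside Sec24d and 6 bases inside Sec23a, since the annotations place the starts of Mia3 and Sec24d differently. Capitals mark the motif, at chr1:183369633-183369662 (minus strand), chr3:123267459-123267488 (plus strand) and chr12:59011993-59012022 (minus strand).
Mia3: tgagcccttgcTGACGTGtcactcgcagca
Sec24d: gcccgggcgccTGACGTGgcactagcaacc
Sec23a: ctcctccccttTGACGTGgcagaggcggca
On either strand, 2.01% of the 32851 promoter windows hold TGACGTG. This and the other percentages are shares of windows, whereas a gene is counted when any window listed for it matches. The share of genes is not given here. Among the pathway lists it is in 6 of 20 COPI and retrograde genes matched (Arf1, Copb1, Copb2, Gbf1, Kdelr3 and Use1). It is in 2 of 14 other COPII genes and 2 of 22 tethering and fusion genes. None of 12 cargo receptor and 11 procollagen genes hold it. Nor do 6 genes of the list that joins the CREB3 family, its proteases, Atf6 and Atf6b. The shorter core ACGTG, which lies inside it, is in 6 of the 8 genes and in 19.6% of windows, and CCACG, which overlaps the core where TGACGTGG stands, is in 4 of the 8 and in 32.8%. The windows of Creb3l2 and Sar1b hold none of the 3. A match is a run of letters and not a measured binding site. The 3 genes with TGACGTG had log2 fold changes of -0.62, -1.15 and -0.39, in the order printed.

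Sec24a and Sar1b are neighbours on chromosome 11 that point away from each other. In GENCODE M21 their gene starts lie 53 bases apart, head to head, and the longest coding transcript of Sec24a starts 7069 bases from the start of Sar1b. In CKO replicate 3 Sec24a was at 2.49 FPKM, below every control, and Sar1b at 75.9 FPKM, above every control. In CKO replicate 4 Sec24a was lower still, at 1.86 FPKM, but Sar1b, at 27.5 FPKM, lay within the control range of 24.2 to 31.7 FPKM.

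Beyond the 9, none of the 99 other genes tested in 6 lists of the pathway passed the threshold. Among 13 other COPII genes, 8 had a log2 fold change below 0, with a median of -0.09 that was 0.15 without CKO replicate 4. The 2 with the highest mean were Sec13, given above, and Pdcd6, a calcium-binding adaptor of the coat, at 41.2 ± 5.20 FPKM in CKO and 30.9 ± 2.47 FPKM in control (SD, n = 4 each, log2 fold change 0.40, limma adjusted p = 0.195). Sec16a and Sec16b, which organize ER exit sites, and Sec24b were the 3 of this list with an unadjusted p under 0.05 and lower, chosen after their values were seen, and over all genes tested 9.45% were lower and 15.9% higher by that rule. Sec16a averaged 6.32 ± 1.65 FPKM in CKO and 11.99 ± 1.91 FPKM in control, and Sec16b 4.68 ± 1.28 and 9.28 ± 2.76 FPKM in the same order.

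Of 15 cargo receptors and genes of the ER-Golgi intermediate compartment (ERGIC) 10 were above 0, with a median of 0.22 that ranged from -0.25 to 0.27 over the 18 refits. Tmed2 averaged 159 ± 61.0 FPKM in CKO and 127 ± 6.69 FPKM in control, and Tmed9 116 ± 27.5 and 83.8 ± 18.0 FPKM (SD, n = 4 each). Both encode p24 proteins that cycle between ER and Golgi. The 27 genes of tethering and fusion split into 13 above and 14 below 0, with a median of -0.01 (-0.46 to 0.10 over the refits), and the 22 genes of COPI and retrograde transport, the return route, into 12 and 10, with a median of 0.02 (-0.42 to 0.23). Rab2a and Ykt6, of tethering and fusion, had the highest levels there, at 81.6 and 66.6 FPKM in CKO and 70.1 and 67.2 FPKM in control. Arf1, the GTPase of the COPI coat, averaged 202 ± 30.6 FPKM in CKO and 180 ± 11.5 FPKM in control, and Copz2, a COPI subunit, 108 ± 92.2 and 74.8 ± 19.99 FPKM, with 246 FPKM in CKO replicate 4.

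A further list holds other genes of the CREB3 family, the proteases that release these factors, and Atf6 and Atf6b. Of its 6 genes tested, 4 were below 0, with a median of -0.40. These were Atf6 (-0.65), Atf6b (-0.29) and the proteases Mbtps1 (-0.57) and Mbtps2 (-0.52). The CREB3 family genes tested, Creb3 (0.21) and Creb3l3 (0.09), were above 0. Mbtps1, the site-1 protease, was at 28.0, 28.4, 18.1 and 18.8 FPKM in CKO replicates 1 to 4 and at 29.9, 37.9, 35.5 and 34.8 FPKM in control replicates 1 to 4. All CKO libraries lay below the controls, as in 6.00% of all genes tested. Replicates 1 and 2 were close to the controls, a pattern like that of Mia3 (log2 fold change of Mbtps1 -0.57, limma adjusted p = 0.130). Creb3 averaged 22.4 ± 10.4 FPKM in CKO and 18.1 ± 1.77 FPKM in control (SD, n = 4 each). Of 16 genes of procollagen cargo and folding 15 were below 0, with a median of -0.57. Col1a2 averaged 5159 ± 2035 FPKM in CKO and 12267 ± 1529 FPKM in control (log2 fold change -1.36, limma adjusted p = 0.0963). Ppib, a prolyl isomerase named after its value was seen, was the 1 above 0 on the deposited scale. The number below 0 was 9 with the marrow-lineage covariate, 11 with the Y-linked one and 12 to 16 in the other refits, and the list's median lay between -1.12 and -0.14.

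**Figure D4:**
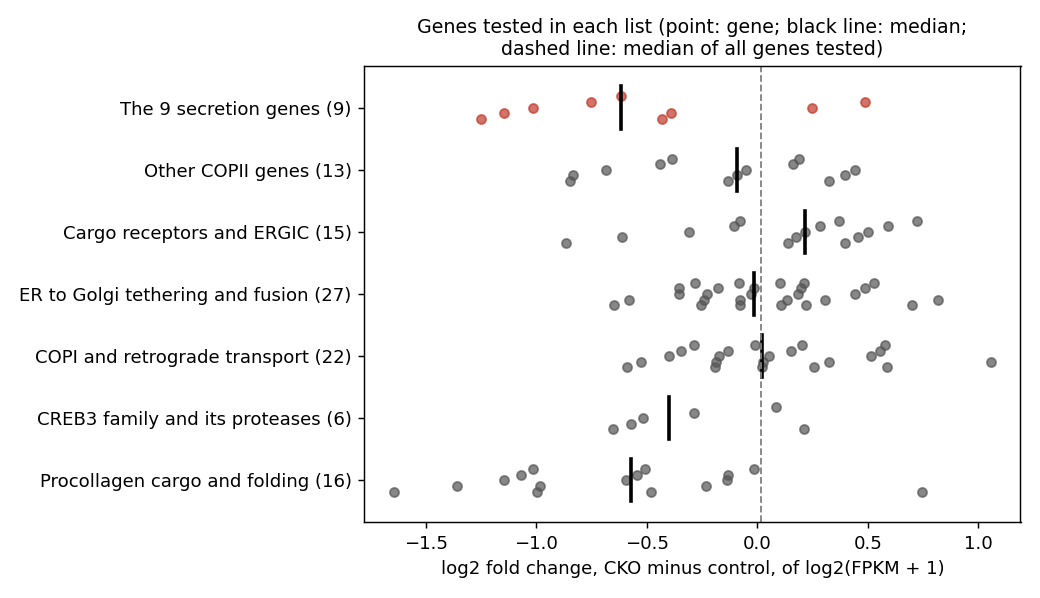
Log2 fold change (horizontal, CKO minus control, of log2(FPKM + 1)) of each gene tested in each list, the number tested in brackets, with the list's median as a black line and the median of all genes tested as a dashed line. The medians of the 9 secretion genes (-0.62) and of procollagen cargo and folding (-0.57) lie left of the others.

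In the authors' deposited table the log2 fold changes of the 9 genes had the same signs, from -1.08 for Creb3l2 and -0.91 for Sec24d to 0.56 for Sar1b. Its p-values were 7e-07 for Creb3l2, 0.00324 for Sec24a, 0.00737 for Sec24d, 0.00981 for Mia3, 0.0289 for Creb3l1 and 0.0432 for Sec31a, and 0.0801 to 0.275 for Sar1b, Sar1a and Sec23a. Whether the p-values of the authors' deposited table were adjusted is not given in the sources used here.

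**Figure D5:**
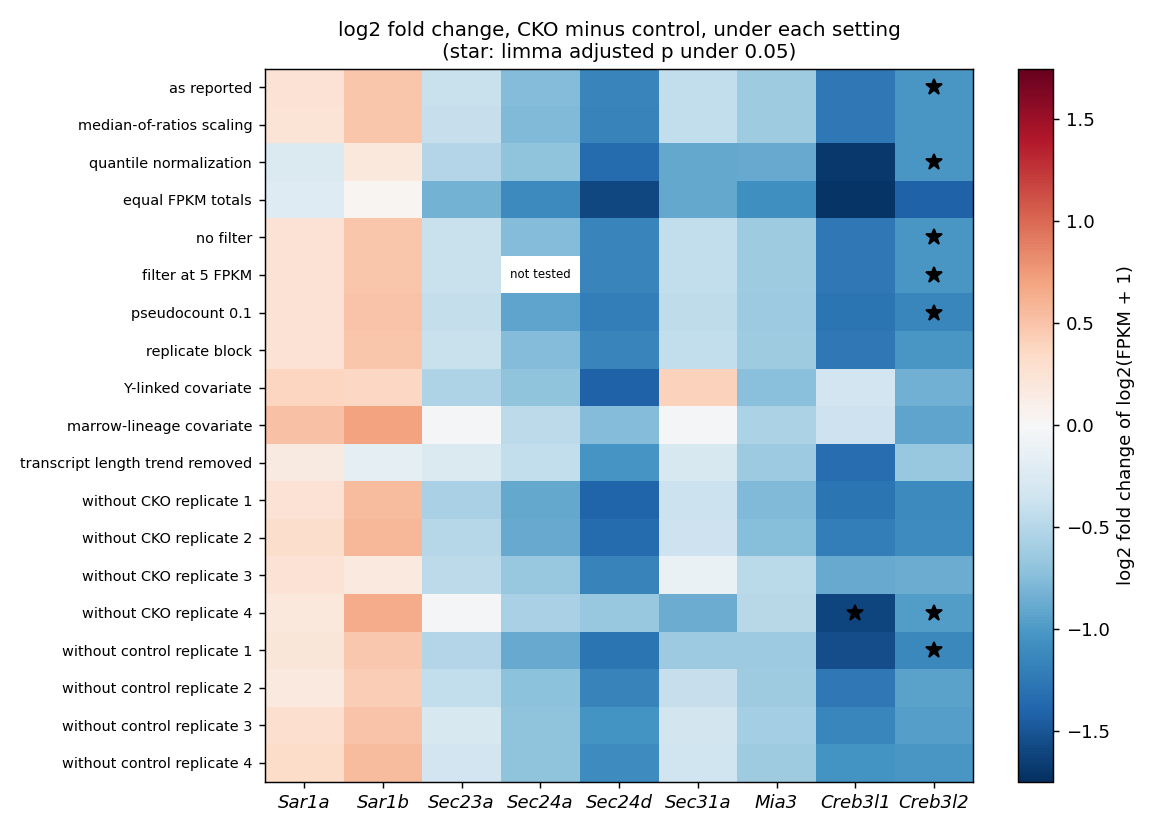
Log2 fold change of each gene (columns) as reported and under each other setting (rows), CKO minus control on the colour scale, with a star where the limma adjusted p is under 0.05. Creb3l2 has a star as reported and in 6 of the 18 other settings, and Creb3l1 in 1.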

How the data were processed

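Bulk RNA of the femoral shaft was measured in 4 CKO and 4 control libraries, grouped and numbered by their titles. Per the labels' protocols, RNA was extracted with TRIzol and libraries made with a NEBNext Ultra kit. The submitters' processing notes list CASAVA 1.8, fastp, HISAT2 2.0.5, featureCounts 1.5.0-p3, DESeq2 1.20.0 and GRCm38, without role or order. Neither strand setting nor annotation is given in the sources used here. Per the file headers, the authors deposited FPKM for each library, with a p-value and a log2 fold change per gene. That log2 fold change matched in sign the mean FPKM of CKO divided by that of control in 13989 of 14457 genes. Low values were searched for steps of whole reads. At most 4 of 242 low genes shared a ratio between 2 libraries (to 3 decimals), so reads were not recovered, the depth is unknown and no counting interval is given.

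A gene was tested when 4 or more of the 8 libraries reached 1 FPKM, which left 12748 genes, all 9 members among them, and dropped 1709. In R 4.3.3, limma 3.58.1 modelled log2(FPKM + 1) by genotype alone, with a trended eBayes step, and Benjamini-Hochberg adjustment ran over the genes tested. The fit was tested on simulated data. For log2 ratios of FPKM within a library, groups were set against each other with exact permutations of the samples, two-sided. Positions and lengths came from GENCODE M21 (GRCm38), which held 13477 of the IDs, and promoters from RefSeq. No library pair was identical. The other settings were scaling, filter, pseudocount, replicate number, covariates, transcript length and leaving out each library. The members and lists were chosen with earlier results of these data known. Named genes are all members, the genes of each ratio, in each list up to 3 called genes or otherwise the 2 with the highest mean, and the 3 nearest to the members' mean profile.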

Additional observations from a re-analysis of the deposited data

Results flagged for a closer look

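In groups of 4 libraries, 18 in all for the 9 genes, the gap of the highest or lowest library to the next was set against the group's range (Dixon's criterion at the 95% level), which chance exceeds in about 1 in 20 groups. Sar1b in CKO replicate 3 stood apart at 75.9 FPKM, while CKO replicates 1, 2 and 4 lay between 27.5 and 33.97 FPKM. Sec24a in control replicate 1 stood apart, at 4.34 FPKM, while control replicates 2 to 4 lay between 6.53 and 6.78 FPKM.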

How the results depend on the processing

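The number of genes called by limma, 578 as reported, was 0 with median-of-ratios scaling, with equal FPKM totals, with the Y-linked or the marrow-lineage covariate and with the length trend removed. It was 358 with quantile normalization, 381 with no filter and 274 with the replicate block, and 0 to 1885 when 1 library was left out. Of the 9 members, 1 was called as reported, 0 with median-of-ratios scaling, equal totals, the replicate block, either covariate or the length trend removed, and 0 to 2 when 1 library was left out. The pathway lists had 0 calls as reported, 6 with quantile normalization (5 of them among procollagen cargo and folding, all lower), 2 at a filter of 5 FPKM and 0 to 11 when 1 library was left out. The member median, -0.62, was -0.88 with quantile normalization, -1.07 with equal totals, -0.37 with the marrow-lineage covariate, and -0.24 and -1.06 within libraries lacking and holding Y-linked expression, and below 0 in all 18 refits. No ratio was called under any alternative, but the test could hardly give a call. After adjustment over 9 ratios, a lone ratio at the smallest exact p could not pass in any setting. Under the replicate block, 4 pairs allow no exact p under the threshold at all. The fold change of Creb3l2 stayed between -1.42 and -0.66 in all 18 refits while its limma adjusted p moved. They were -1.02 and 0.0637 with median-of-ratios scaling, -1.42 and 0.0637 with equal totals, -1.01 and 0.0548 with the replicate block, -0.84 and 0.237 with the Y-linked covariate, -0.93 and 0.853 with the marrow-lineage one, -0.66 and 0.127 with the length trend removed, and -1.13 to -0.87 and 0.0299 to 0.177 without 1 library. The fold change of Sec31a was above 0, at 0.40, with the Y-linked covariate. The causes were not tested. Deviations of same-numbered libraries from their group means had correlations of -0.26 to 0.43. For CKO replicates 2 and 4 the best-matching control had the same number, and for CKO replicates 1 and 3 it had another. Whether the numbers pair the samples is not given by the labels, and these correlations cannot settle it. Sec24a was not tested at the filter of 5 FPKM. The unknown depth limits what can be said of low genes such as Sec24a.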
